A study of Mus musculus with 15 samples.

Results

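Brains of mice with an occluded middle cerebral artery that had received the treatment labelled JA were compared with brains of sham-operated mice, to describe what still separated a treated brain from an unoccluded one. All mice were of the Kunming strain, an outbred stock. The series holds 15 libraries of brain messenger RNA, 3 in each of 5 groups, and its title names jasminoidin, a plant iridoid glycoside also known as geniposide, and ursodeoxycholic acid, a bile acid, in cerebral ischemia followed by reperfusion. The groups used here were sham (3 libraries, no occlusion), JA (3 libraries, occlusion and the treatment so labelled) and, as a reference for untreated injury, vehicle (3 libraries, occlusion and the carrier alone). The labels do not spell out JA and do not give the age or sex of the mice, the dose, the duration of occlusion, the time of sampling, or the brain region and hemisphere taken, and they do not say whether a library came from 1 mouse or from a pool. Since separate animals are not stated for the libraries of a group, p-values reflect the spread among these libraries only, and that spread may be technical.

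The genes compared were the 14541 of 18931 in the deposited table with at least 10 counts in 3 or more of the 6 JA and sham libraries. Of the 4390 genes left out, 981 had 0 counts in all 6 libraries. The rule was met by exactly 3 libraries for 189 genes, which were the 3 JA libraries for 11 of them and the 3 sham libraries for 7, and it was missed by 1 library for 259 genes. The 6 libraries held 18575134 to 19718817 counts each, with 16498 to 16779 genes detected, and the share of counts in the 10 most abundant genes was 2.79% to 3.2%. Levels are given in CPM, the counts scaled to a common library total with TMM factors, and a count of 3, taken as the floor of detection, corresponds to 0.152 to 0.162 CPM. The defining markers of neurons, astrocytes, oligodendrocytes and microglia, the cells that make up brain tissue, were present in all 6 libraries.

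Occlusion of the middle cerebral artery starves the striatum and overlying cortex of blood, and neurons in the core of the territory die. Over the following days microglia proliferate and take up debris, blood-borne macrophages enter, astrocytes turn reactive and a scar of extracellular matrix forms. Immediate early genes are a separate class: they are transcribed within minutes of neuronal activity, without new protein synthesis, through factors such as CREB and SRF that are already bound near their start sites. In bulk tissue, fewer cells of a type and less RNA per cell cannot be told apart.

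JA replicate 1 did not resemble the other JA libraries. Over the genes compared, the first principal component of the sham, JA and vehicle libraries held 66.6% of the variance, with sham at -34 to -32.9 and vehicle at 28.2 to 78. JA replicate 1 lay at 25.1, next to vehicle replicate 1, while JA replicates 2 and 3 lay at -24.2 and -37, beside sham. The chi-square per degree of freedom over genes, which is near 1 for libraries that differ by sampling noise alone, was 33.6 and 38.2 between JA replicate 1 and the other JA libraries, 7.93 between JA replicates 2 and 3, and 5.1 to 7.79 among sham libraries. JA replicate 1 is kept as labelled. Why it stands apart was not tested, and neither its label nor the size of its lesion can be checked from the files, so each mean and fold change over all 3 JA libraries joins unlike libraries. List medians are therefore also given without it where they differ by over 1.5 times.

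**Figure D1:**
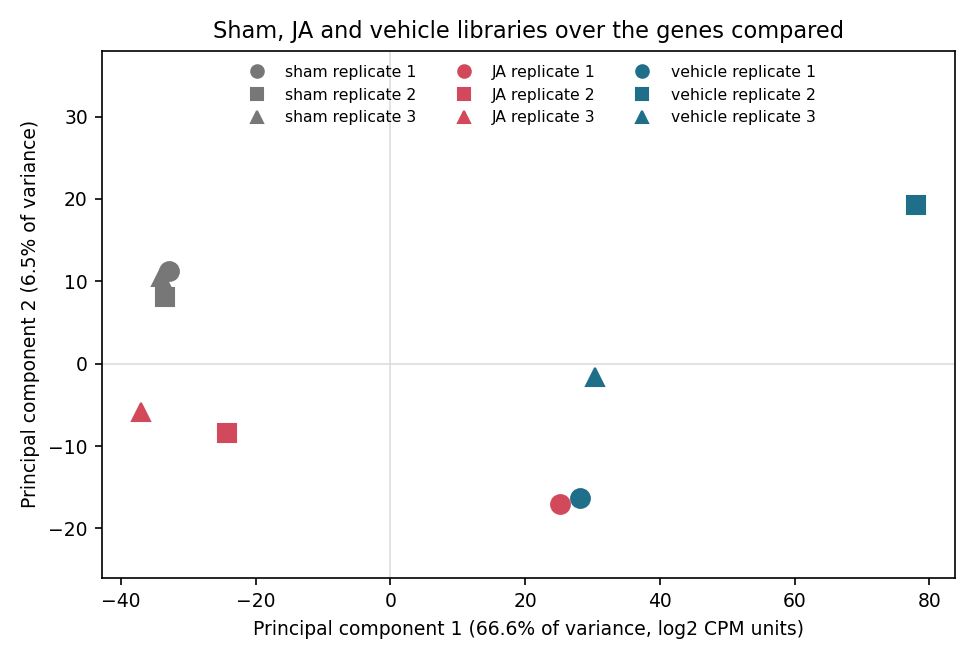
Each point is 1 library, placed by its first (x axis) and second (y axis) principal component of log2 CPM over the 14541 genes. Sham libraries cluster at -34 to -32.9 on the x axis, JA replicates 2 and 3 lie near them, and JA replicate 1 lies at 25.1 beside vehicle replicate 1 at 28.2.

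Across all genes, 0 of 14541 (0.0%) passed the threshold between JA and sham in edgeR's quasi-likelihood test (Benjamini-Hochberg adjusted p under 0.05), and the smallest adjusted p was 0.414. At an unadjusted p under 0.05 there were 679 higher genes (4.67%) and 576 lower genes (3.96%). DESeq2 called 31 genes (0.213%), of which 25 were higher and 6 lower in JA, and limma-voom called 0. Without JA replicate 1, edgeR called 91 genes higher (0.626%) and 6 lower (0.0413%), while leaving out any of the other 5 libraries gave 0 calls. Genes with all 3 JA libraries above all 3 sham libraries numbered 1087 (7.48%), and genes with all 3 below numbered 1295 (8.91%). These shares are the background for the counts below. A single JA library was above all 3 sham libraries for 33.7% of genes in replicate 1, 30.9% in replicate 2 and 25.4% in replicate 3, and below all 3 for 35.5%, 30.1% and 29.8%.

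The genes named first are the 12 with the smallest p in each direction among those whose groups do not overlap, so that their separation is part of how they were chosen. The higher ones included regulators of transcription and of the clock, and the lower ones included mitochondrial proteins. None of the 24 passed the edgeR threshold, and all 12 higher genes passed in DESeq2. Per1, a repressor in the circadian feedback loop (Entrez 18626; chromosome 11, 69095217 to 69109960, plus strand, GRCm38), stood at 66, 66.5 and 62.9 CPM in the sham libraries and at 89.4, 127 and 125 CPM in JA replicates 1 to 3. JA replicate 1 was the nearest to sham (log2 fold change 0.81 ± 0.13 SE, adjusted p = 0.461 in edgeR and 1.76e-05 in DESeq2). Bhlhe40, a transcriptional repressor that also acts on the clock (Entrez 20893; chromosome 6, 108660629 to 108666925), stood at 105, 94.8 and 94.5 CPM in sham and at 132, 177 and 179 CPM in JA. JA replicate 1 was again the nearest to sham, and the difference was 0.73 ± 0.12 on the log2 scale (adjusted p = 0.461 in edgeR and 1.76e-05 in DESeq2). Klf2, a transcription factor induced by laminar flow in endothelium (chromosome 8, 72319033 to 72321656), had the steadiest JA values of these, at 11.3, 9.96 and 10.6 CPM against 4.65, 6.21 and 6.44 CPM in sham. Its difference was 0.88 ± 0.17 (adjusted p = 0.461 in edgeR and 0.0162 in DESeq2).

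The other higher genes differed by less, between 0.37 and 0.58 on the log2 scale. Pkd1, which encodes the membrane protein polycystin-1, stood at 83.7, 84.4 and 75.1 CPM in sham and 119, 114 and 103 CPM in JA. Its last exons overlap Tsc2 on the opposite strand, and without a stated strand setting the reads of the pair cannot be told apart. Clk1, a kinase of splicing factors, stood at 32.2, 35.1 and 27.7 CPM in sham and 49.6, 46.9 and 44.9 CPM in JA. Pfkfb3, which makes the activator of the glycolytic enzyme phosphofructokinase, ranged over 28.8 to 33.6 CPM in sham and 40.4 to 44.3 CPM in JA. Gse1, Epop, Spen, Bcl6, Rsrp1 and Jade2 complete the set, with adjusted p = 0.461 each in edgeR. Bcl6 and Spen are transcriptional repressors and Epop associates with Polycomb complex 2. Exons of Bhlhe40, Bcl6, Gse1 and Spen also overlap another gene, which makes their values uncertain in the same way.

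Zfr2, which encodes a zinc finger RNA-binding protein (Entrez 103406; chromosome 10, 81233155 to 81252123, plus strand), had the smallest p of all genes named. It stood at 43.2, 44.3 and 41.1 CPM in sham and at 29.5, 27.5 and 28.9 CPM in JA, so that the gap between the groups was wider than the spread within either. The difference was -0.58 ± 0.07 (adjusted p = 0.414 in edgeR and 4.45e-05 in DESeq2). Vehicle replicates 1 and 3 stood at 44.1 and 43.7 CPM, within the sham range, and replicate 2 at 31.5. Slc17a6, the vesicular glutamate transporter of thalamic and other subcortical neurons (Entrez 140919; chromosome 7, 51622006 to 51671119), stood at 46.8, 54.7 and 40.1 CPM in sham and at 30.9, 31.8 and 31.9 CPM in JA. Vehicle lay lower still, at 19.6, 20.9 and 23.2 CPM.

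Among lower genes of mitochondria, Ndufa12, an accessory subunit of respiratory complex I (chromosome 10, 94198720 to 94221443), stood at 78.4, 82.7 and 91.1 CPM in sham and 47.7, 52 and 62.9 CPM in JA. That is a difference of -0.63 ± 0.11 (adjusted p = 0.461 in edgeR and 0.000705 in DESeq2). Tomm22, a receptor of the outer membrane import machinery, stood at 67.8, 61.9 and 69.7 CPM in sham and 47.2, 52.4 and 54 CPM in JA. Mrpl41, a protein of the mitochondrial ribosome, ranged over 44.1 to 50.9 CPM in sham and 36.2 to 38.9 CPM in JA. Sec61g, a subunit of the channel that passes new proteins into the endoplasmic reticulum, ranged over 26.6 to 28.1 CPM in sham and 17.6 to 20.6 CPM in JA. The remaining lower genes were Ankrd34c, Izumo4, Gpr21, Pts, Zfyve28 and Rasgef1b, with log2 fold changes from -1.02 for the orphan receptor Gpr21 to -0.35 for Zfyve28. Gpr21 lies within Rabgap1 on the same strand, so its reads may be shared with that gene. Of the 12 lower genes, DESeq2 called Zfr2, Ndufa12, Slc17a6 and Sec61g.

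**Figure D2:**
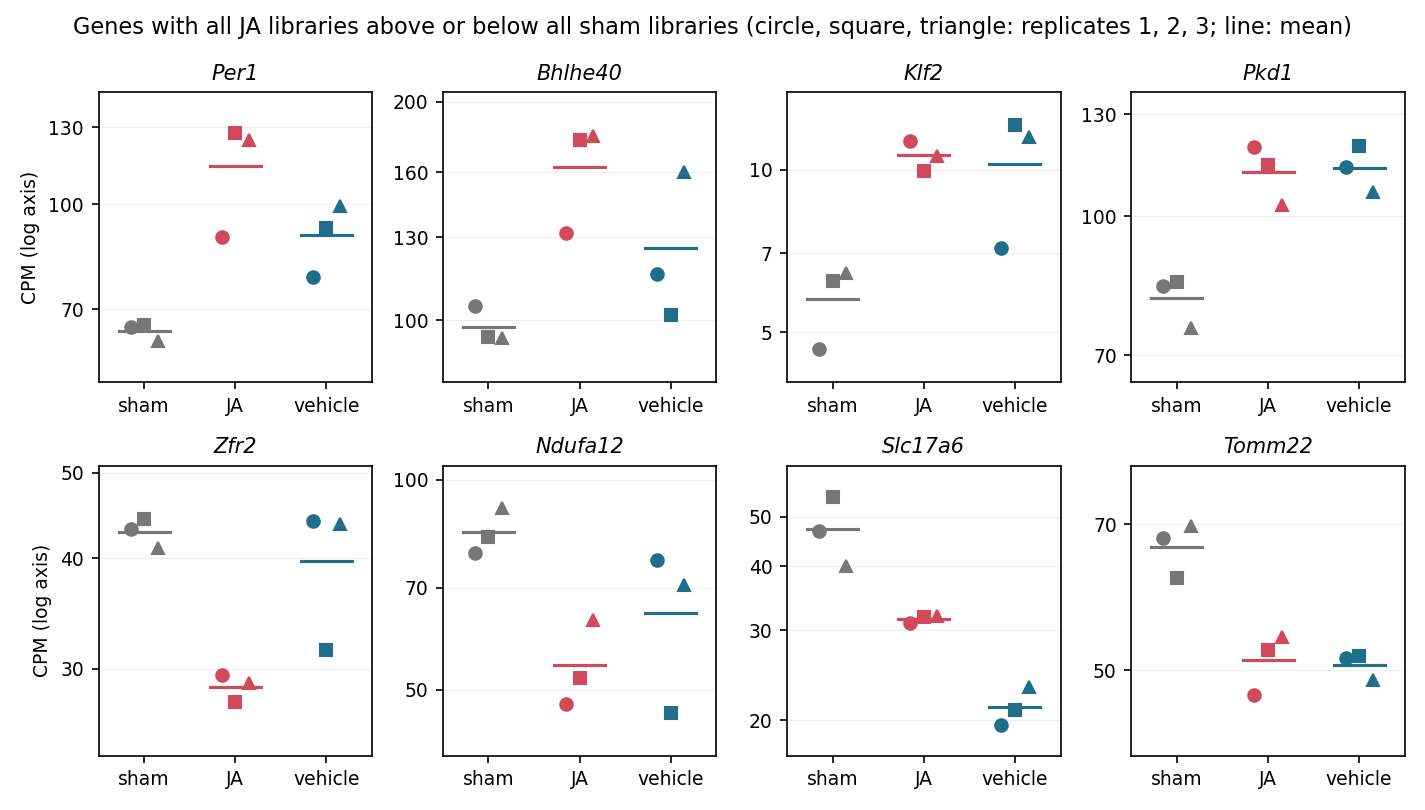
CPM on a log axis for 8 genes of the rule in sham, JA and vehicle libraries, with the mean as a line. In each panel the 3 JA libraries lie on 1 side of the 3 sham libraries, as for Zfr2 at 27.5 to 29.5 CPM against 41.1 to 44.3 CPM.

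Of 14 circadian clock genes, 0 passed in edgeR, 4 had all JA libraries above sham and 0 had all below, against 7.48% and 8.91% of all genes. Besides Per1 these were Per2, Per3 and Cry1, which are also repressors of the loop, while the repressor Cry2 overlapped. Per2 stood at 23.3, 22.7 and 24.9 CPM in sham and 26.3, 39.9 and 42.9 CPM in JA. Per3 stood at 35.2, 38.3 and 33.5 CPM in sham and 51.6, 46.5 and 39.5 CPM in JA, and here replicate 1 was the highest. Cry1 differed by little, at 15.8 to 16.7 CPM in sham and 18.2 to 18.8 CPM in JA. The median log2 fold change of the 14 genes was 0.09, against 0.0 over all genes. In the fit without JA replicate 1, Per1 (0.95 ± 0.07, adjusted p = 1.13e-05, edgeR) and Per2 (0.81, adjusted p = 0.000489, edgeR) were called higher and the other 12 were not.

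The immediate early genes split the JA libraries, with replicate 1 low and replicates 2 and 3 high. Of 16 measured genes, JA replicate 2 was above all sham libraries for 13 and JA replicate 3 for 14, while JA replicate 1 was below all sham libraries for 12. Over all genes these shares were 30.9%, 25.4% and 35.5%. The median of log2 CPM minus the sham mean was -0.44 in JA replicate 1, 0.97 in replicate 2 and 1.03 in replicate 3. With all 6 libraries 0 of 16 passed in edgeR. Without JA replicate 1, 10 of 16 were called higher, against 0.626% of all genes, which makes up 10 of the 91 genes called higher in that fit.

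The promoters of 3 of these 10 genes are shown here, chosen after the values were seen, because they hold between them each kind of motif searched. The stretches end at the annotated start of transcription (Nr4a1, Egr2) or before the first base of an annotated exon (Dusp1), run 5′ to 3′ on the strand of the gene, and come from RefSeq on GRCm38.p6. Nr4a1, a nuclear receptor transcription factor, is shown over chr15:101266596-101266845 on the plus strand. Dusp1, a phosphatase that switches off MAP kinases, is shown over chr17:26508520-26508722 on the minus strand. Egr2, a zinc finger transcription factor, is shown over chr10:67537619-67537868 on the plus strand. Capitals mark the cyclic AMP response element TGACGTCA bound by CREB, its short form TGACG on either strand, and the CArG box bound by SRF.
Nr4a1: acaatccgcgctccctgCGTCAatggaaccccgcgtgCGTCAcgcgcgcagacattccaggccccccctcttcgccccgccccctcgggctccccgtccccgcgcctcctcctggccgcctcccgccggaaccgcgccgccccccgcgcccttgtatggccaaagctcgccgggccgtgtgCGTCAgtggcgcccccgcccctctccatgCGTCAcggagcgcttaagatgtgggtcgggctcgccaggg
Dusp1: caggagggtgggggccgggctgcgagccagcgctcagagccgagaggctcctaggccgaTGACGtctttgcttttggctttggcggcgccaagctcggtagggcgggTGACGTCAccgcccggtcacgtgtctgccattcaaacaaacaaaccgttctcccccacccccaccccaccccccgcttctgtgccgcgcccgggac
Egr2: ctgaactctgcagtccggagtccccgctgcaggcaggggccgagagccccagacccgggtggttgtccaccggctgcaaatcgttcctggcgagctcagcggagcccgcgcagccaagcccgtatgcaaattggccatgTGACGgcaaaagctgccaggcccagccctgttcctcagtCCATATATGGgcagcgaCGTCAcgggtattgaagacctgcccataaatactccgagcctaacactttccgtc

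The Nr4a1 stretch holds 4 short sites (TGACG on either strand), that of Dusp1 holds 1 full element and a separate short site, and that of Egr2 holds 1 CArG box and 2 short sites. Egr2 has other annotated starts, and the window before 1 of them (chr10:67535249-67535474) holds none of these motifs while another (chr10:67537316-67537565) holds a CArG box but no short site. Both strands were searched over the 250 bases before each annotated start, and a full element also counts as a short site. Of 12 immediate early genes with a promoter in the table, 10 (83.3%) held a short site, 2 a full element and 1 a CArG box. Among 11525 genes of the comparison with a promoter, 29.1% held a short site, 2.91% a full element and 1.4% a CArG box. Of all 32851 promoter windows, 17.8%, 1.55% and 1.47% held them. Of the 91 genes called higher without JA replicate 1, 69 had a promoter, and 33 of these (47.8%) held a short site. A match describes the letters only, and binding was not measured.

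Arc, which encodes a synaptic protein made in response to activity (Entrez 11838; chromosome 15, 74669083 to 74672570, minus strand), stood at 68.8, 70.8 and 89.6 CPM in sham and at 35.8, 386 and 294 CPM in JA replicates 1 to 3. JA replicate 1 was thus below every sham library and the other JA libraries far above them. Over all 6 libraries the log2 fold change was 1.64 ± 0.90 (adjusted p = 0.616, edgeR), and without JA replicate 1 it was 2.16 ± 0.16 (adjusted p = 0.00535, edgeR). Nr4a1, whose promoter is given above, stood at 39.9, 41.8 and 36.2 CPM in sham and at 30.5, 158 and 140 CPM in JA. It had the smallest adjusted p of all genes without JA replicate 1 (log2 fold change 1.93 ± 0.08, adjusted p = 2.18e-08, edgeR), against 0.577 with all libraries. Egr2 stood at 2.69, 2.51 and 5.45 CPM in sham and at 1.96, 22.4 and 19 CPM in JA, with JA replicate 1 again the lowest.

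Fosl2, a subunit of the AP-1 factor, differed in pattern, since JA replicate 1 at 25.6 CPM lay within the sham range of 22.5 to 26.3 CPM and not below it. Its other JA libraries stood at 53.8 and 52.5 CPM. Dusp1 stood at 25.9, 27.4 and 32.3 CPM in sham and at 17.6, 58.4 and 57.5 CPM in JA (without JA replicate 1, log2 fold change 1.02, adjusted p = 0.000102, edgeR). Its annotated exons overlap Ergic1 on the opposite strand. Nr4a3, a relative of Nr4a1, stood at 27.4, 31 and 31.9 CPM in sham and 25.3, 54 and 63.2 CPM in JA. Junb, another AP-1 subunit, stood at 41, 42.9 and 49.4 CPM in sham and 31.1, 87.1 and 77.3 CPM in JA. Its exons overlap Prdx2 on the opposite strand. Arc, Dusp1, Nr4a3 and Junb were chosen after their values were seen.

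Members of the list did not all share this pattern. Jun, the AP-1 subunit also induced by axonal injury, stood at 71.2, 50.4 and 58.2 CPM in JA, where replicate 1 was the highest, against 51.2, 51.1 and 61 CPM in sham. Its exons overlap Junos on the opposite strand. Npas4, a neuron-restricted factor driven by calcium influx, stood at 2.06, 19.5 and 22.7 CPM in JA and 13.7, 16.4 and 31.4 CPM in sham. It was low in JA replicate 1 but not above sham in the others. Among genes outside the list, chosen after their values were seen, Trib1, a pseudokinase, was called both by DESeq2 (log2 fold change 1.2, adjusted p = 0.00342) and without JA replicate 1. It stood at 12.8, 11.4 and 13.1 CPM in sham and 16.7, 38.1 and 31 CPM in JA. Klf10, a transcription factor induced by TGF-beta, stood at 24.4, 24.4 and 26.8 CPM in sham and at 16.8, 50.4 and 51.2 CPM in JA, with replicate 1 below sham. Of the 91 genes called higher without JA replicate 1, that library was above all sham libraries for 36, below all for 40 and within the sham range for 15. Over all genes it was above all sham libraries for 33.7% and below all for 35.5%.

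The level of these genes also varied among occluded brains without JA. Arc stood at 52.1, 31.5 and 187 CPM in the vehicle libraries, and at 214 to 276 CPM in the 3 libraries of the group labelled UA. The immediate early list had a median deviation of -0.29, -0.52 and 0.66 in vehicle replicates 1 to 3. Between JA and vehicle, 0 of 16 genes passed the edgeR threshold, and the smallest adjusted p among those named here was 0.0682, for Jun, which stood lower in JA.

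**Figure D3:**
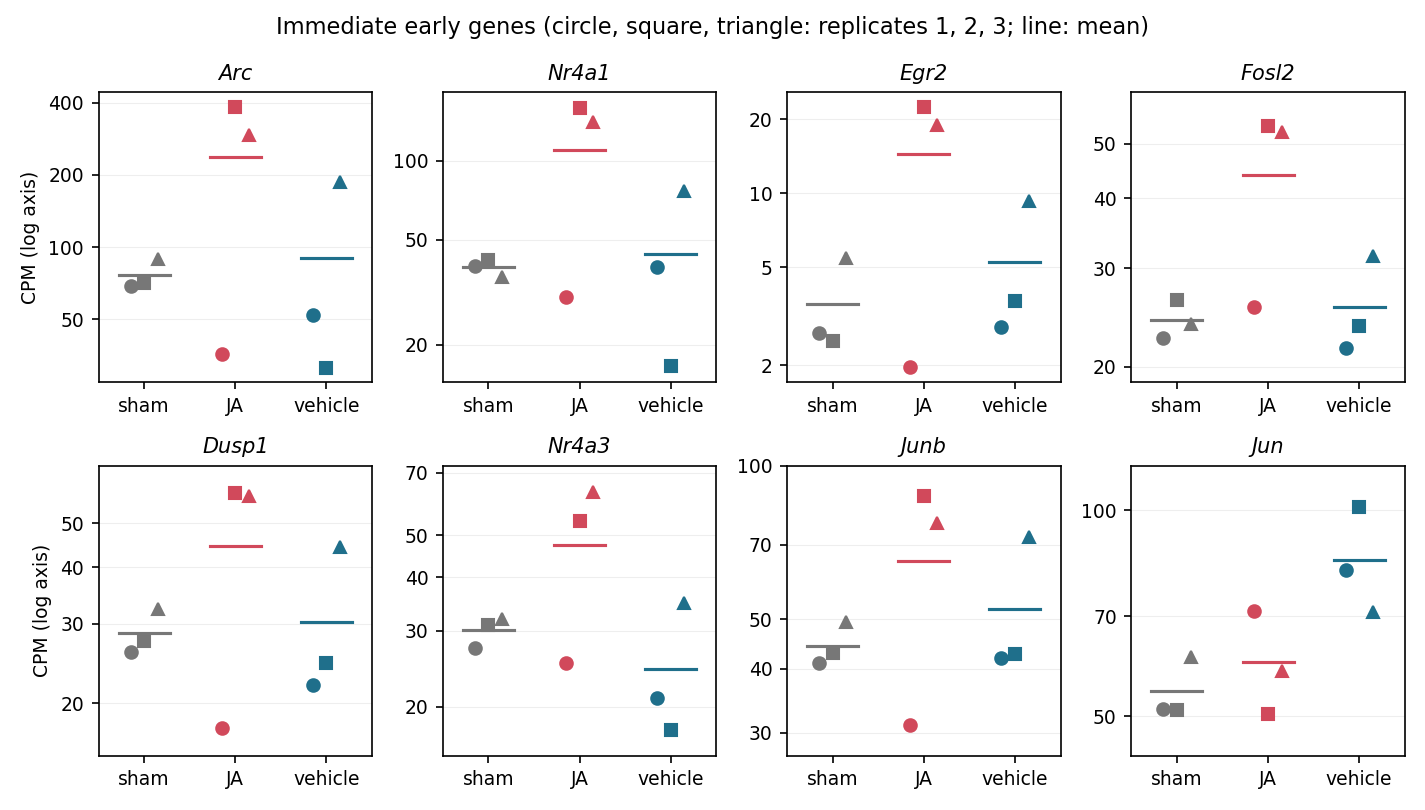
CPM on a log axis for 8 immediate early genes in sham, JA and vehicle libraries, with the mean as a line. JA replicates 2 and 3 (square and triangle) lie above sham and JA replicate 1 (circle) at or below it, as for Arc at 386, 294 and 35.8 CPM, whereas Jun shows no such order.

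Thalamic markers were lower in all 3 JA libraries than the sham mean. All 10 had negative fold changes with a median of -0.60, 6 of 10 had an unadjusted p under 0.05 against 3.96% of all genes, and 4 of 10 had all JA libraries below all sham libraries against 8.91%. 0 passed the threshold in edgeR. The median deviation was -0.48, -0.50 and -0.62 in JA replicates 1 to 3, but sham replicate 3 itself stood at -0.29. Without sham replicate 3 the median fold change was -0.72. Besides Slc17a6, the 4 were Calb2, Zic1 and Plekhg1. Calb2, the calcium buffer calretinin, stood at 32.5, 36.5 and 46.5 CPM in sham and 28.5, 28.9 and 25.4 CPM in JA. Zic1, a transcription factor of medial thalamus and septum, stood at 33, 28 and 21.8 CPM in sham and 20.3, 16.3 and 17.2 CPM in JA. The vehicle libraries lay at -0.51, -0.41 and -0.35 on the same scale, near the JA libraries.

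Shox2, a homeobox transcription factor found in thalamus and outside the list, had the largest fold among the genes DESeq2 called lower (adjusted p = 2.29e-05, and 0.538 in edgeR). It had 105, 142 and 11 counts in the sham libraries and 2, 1 and 0 counts in JA replicates 1 to 3, which is at or under the floor in each. Sham replicate 3 was thus far lower than the other sham libraries. Its exons overlap Rsrc1 on the opposite strand. It met the filter on low counts only through the 3 sham libraries, so it could only come out lower in JA. Its call therefore adds nothing to the thalamic list. Hypothalamic neuropeptide genes, a second list that depends on which deep structures are in the sample, had a median deviation of -0.73, -0.69 and -0.71 in the JA libraries and -0.26, 0.37 and -0.08 in sham. The vehicle libraries stood at -0.04, -1.97 and -0.25. Of its 7 measured genes 6 had negative fold changes, and the median of the list was -0.30 (-0.47 without JA replicate 1). The genes did not move as one: 1 had all JA libraries below sham and 1 all above, against 8.91% and 7.48% of all genes. JA replicates 1 to 3 were below every sham library for 3, 2 and 5 of 7. Summed levels were 19.2 to 20 CPM in JA and 23.8 to 43.8 CPM in sham. Pmch alone had 24, 232 and 9 counts in sham replicates 1 to 3. The part of sampled structures in the thalamic values was not tested.

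Subunits of the respiratory chain encoded in the nucleus were uniformly a little lower in JA. All 20 had negative fold changes with a median of -0.15 against 0.0 over all genes. 13 of 20 had all JA libraries below all sham libraries, against 8.91% of all genes, and 7 of 20 had an unadjusted p under 0.05, against 3.96%. 0 passed the threshold. Cox6c, a small subunit of cytochrome oxidase, stood at 225, 214 and 232 CPM in sham and at 172, 190 and 198 CPM in JA, a log2 fold change of -0.26 ± 0.07 (adjusted p = 0.538, edgeR). Cox5a, another subunit of that enzyme, stood at 143, 138 and 147 CPM in sham and 107, 125 and 124 CPM in JA. Ndufb5 and Ndufa9, of complex I, had log2 fold changes of -0.26 and -0.16. The median deviation was -0.22 in replicate 1, -0.11 in replicate 2 and -0.08 in replicate 3, and the vehicle libraries lay at -0.32 to -0.21. The median fold change of the 20 was -0.10 without JA replicate 1.

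Cytoplasmic ribosomal protein genes did not differ in 1 direction. Of 20, 16 had negative and 4 positive fold changes with a median of -0.03. JA replicate 1 stood at a median deviation of 0.17, between sham and vehicle at 0.26 to 0.54, and JA replicates 2 and 3 at -0.12 and -0.16, below sham at -0.07 to 0.13. The median without JA replicate 1 was -0.13. All JA libraries lay below sham for 2 of the 20, Rps18 and Rpl3, a share near the 8.91% of all genes. Rps18, of the small subunit, stood at 31.5, 32.1 and 31.4 CPM in sham and 30.1, 29.3 and 30.9 CPM in JA. Rpl3, of the large subunit, had the wider gap: 601, 488 and 551 CPM in sham and 429, 353 and 445 CPM in JA (log2 fold change -0.42, adjusted p = 0.538, edgeR). Outside the list, Rplp0, of the ribosomal stalk and chosen after its values were seen, was called lower without JA replicate 1 (log2 fold change -0.81, adjusted p = 0.0474, edgeR), where it stood at 116 and 102 CPM against 160 to 219 in sham, while JA replicate 1 stood at 216 CPM. Ribosomal protein genes have many processed copies, so these values are uncertain.

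Transcripts of red blood cells were lower in every JA library. Of 7 genes 4 passed the filter on low counts, and all 4 had all JA libraries below all sham libraries, against 8.91% of all genes. Their summed level with the 3 others was 146 to 212 CPM in sham, 5.64, 69.4 and 46 CPM in JA replicates 1 to 3, and 4.1 to 145 CPM in vehicle. Hbb-bt, a beta globin, stood at 20.9, 19.5 and 13.9 CPM in sham and 0.503, 6.97 and 3.3 CPM in JA. Alas2, the first enzyme of heme synthesis in red cells, stood at 7.18, 7.52 and 4.56 CPM in sham and 0.0503, 2.43 and 1.48 CPM in JA, and was called lower without JA replicate 1 (log2 fold change -1.7, adjusted p = 0.0133, edgeR). With all libraries its adjusted p was 0.568. Globin genes are near-identical copies, and Alas2 overlaps Apex2, so single values are uncertain.

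**Figure D4:**
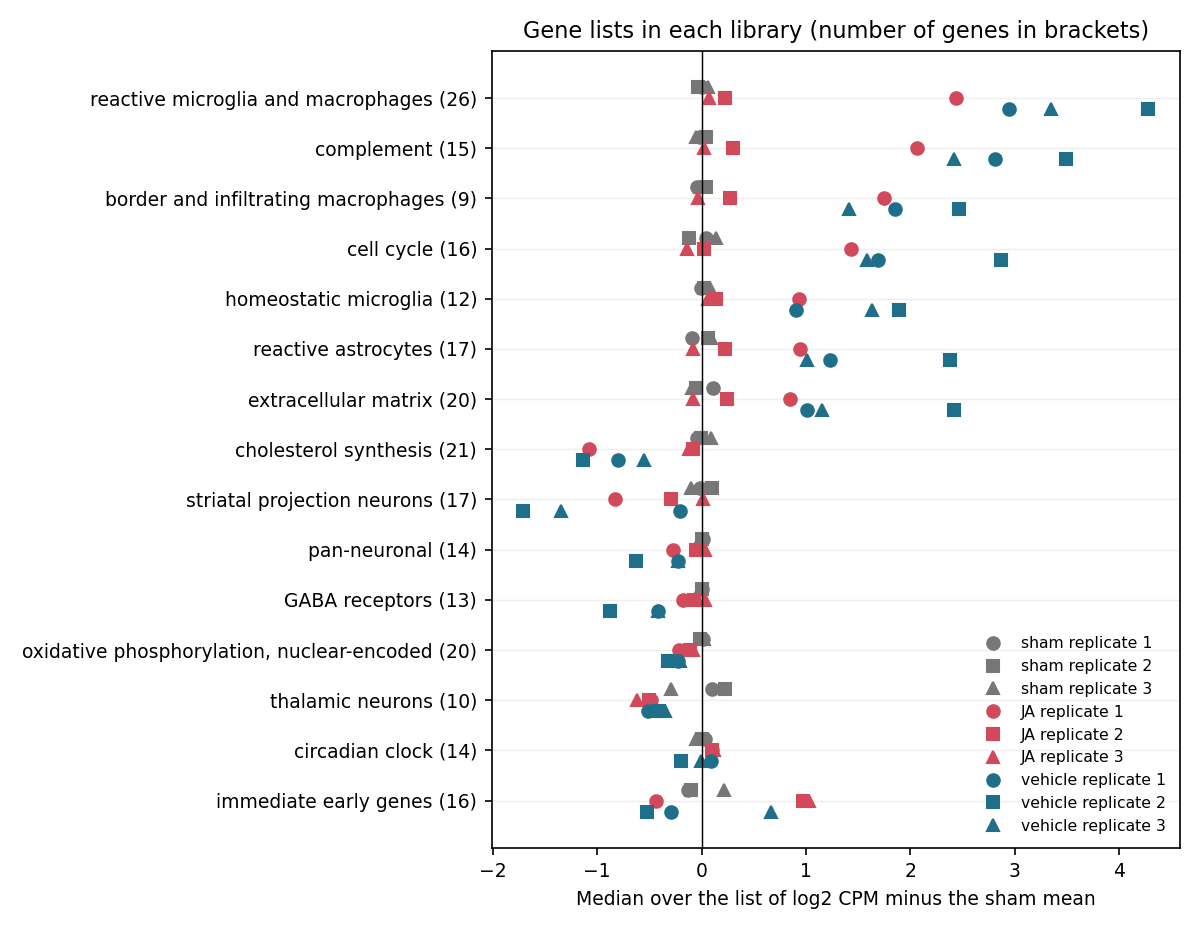
Each point is 1 library: the median, over the genes of a list that passed the filter, of log2 CPM minus the sham mean. JA replicate 1 (circle) lies far above sham and under vehicle for the reactive microglia, complement and cell cycle lists, at 2.44 for reactive microglia against 2.94 to 4.28 in vehicle, while JA replicates 2 and 3 lie at 0.22 and 0.07, and the order is different for immediate early genes and thalamic neurons.

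Injury-associated glial genes were high in JA replicate 1 and much closer to the sham level in the other JA libraries. The reactive microglia and macrophage list had 26 measured genes, all with a positive fold change (median 1.34), and all 26 were above every sham library in JA replicate 1. JA replicate 2 was above every sham library for 20 of 26 and JA replicate 3 for 7, against 30.9% and 25.4% of all genes. The median deviations were 2.44, 0.22 and 0.07. Without JA replicate 1 the median fold change was 0.14 and 0 of 26 passed, as with all libraries. The summed level of the list was 2686 to 2805 CPM in sham, 11770 in JA replicate 1, 3182 in replicate 2 and 2752 in replicate 3.

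Spp1, the secreted protein osteopontin of phagocytic microglia (Entrez 20750; chromosome 5, 104435118 to 104441050), stood at 11.1, 13.4 and 23 CPM in sham and at 1410, 24.2 and 31.5 CPM in JA. JA replicate 1 lay within the vehicle range of 991 to 3021 CPM. The log2 fold change was 4.95 ± 2.13 (adjusted p = 0.577, edgeR) with all libraries and 0.82 (adjusted p = 0.548) without JA replicate 1. Gpnmb, a glycoprotein of lipid-laden phagocytes (chromosome 6, 49036546 to 49070929), stood at 2.8, 2.71 and 4.56 CPM in sham and at 519.6, 8.73 and 5.88 CPM in JA. All 3 JA libraries were above sham, but the gap was small in replicates 2 and 3. Clec7a, the receptor dectin-1, stood at 0.581, 0.365 and 0.576 CPM in sham and at 36.5, 1.91 and 0.714 CPM in JA. With Tyrobp, Lgals3 and Msr1 these made 6 of 26 genes with all JA libraries above sham, against 7.48% of all genes. Cst7 and Itgax, the other 2 of the 28 listed, did not pass the filter.

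Homeostatic microglial markers followed the same order over a smaller range. The fold change was positive for all 12 (median 0.45), and all 12 were above every sham library in JA replicate 1. In JA replicates 2 and 3, 7 and 6 of 12 were above every sham library. Over all genes the shares in JA replicates 1 to 3 were 33.7%, 30.9% and 25.4%. Median deviations in JA replicates 1 to 3 were 0.93, 0.14 and 0.06. Without JA replicate 1 the median fold change was 0.09. Fcrls, a microglial Fc receptor-like protein (chromosome 3, 87250758 to 87263738), kept all JA libraries above sham, at 111, 40.2 and 37.7 CPM against 28.3, 30.2 and 21.8 CPM. Its log2 fold change was 1.24 ± 0.52 (adjusted p = 0.577, edgeR), and 0.55 without JA replicate 1. Siglech, a sialic acid-binding lectin, stood at 28, 19.7 and 18.6 CPM in JA and 13.8 to 18.4 CPM in sham. P2ry12, the purinergic receptor that steers microglial processes, overlapped between the groups, at 87.5, 71.5 and 78.3 CPM in JA and 57.4 to 74.8 CPM in sham. Its exons overlap those of Med12l on the opposite strand.

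All 15 complement genes were higher in the mean of JA, with a median log2 fold change of 1.30 that came to 0.17 without JA replicate 1, and 0 passed. JA replicate 1 was above every sham library for 15 of 15, replicate 2 for 10 and replicate 3 for 5. Over all genes these shares were 33.7%, 30.9% and 25.4%. C3ar1, the receptor of the anaphylatoxin C3a, stood at 0.422, 1.04 and 1.1 CPM in sham and 35.3, 2.22 and 2.47 CPM in JA, so that all JA libraries lay above sham. The median deviations of the list were 2.06, 0.30 and 0.02.

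**Figure D5:**
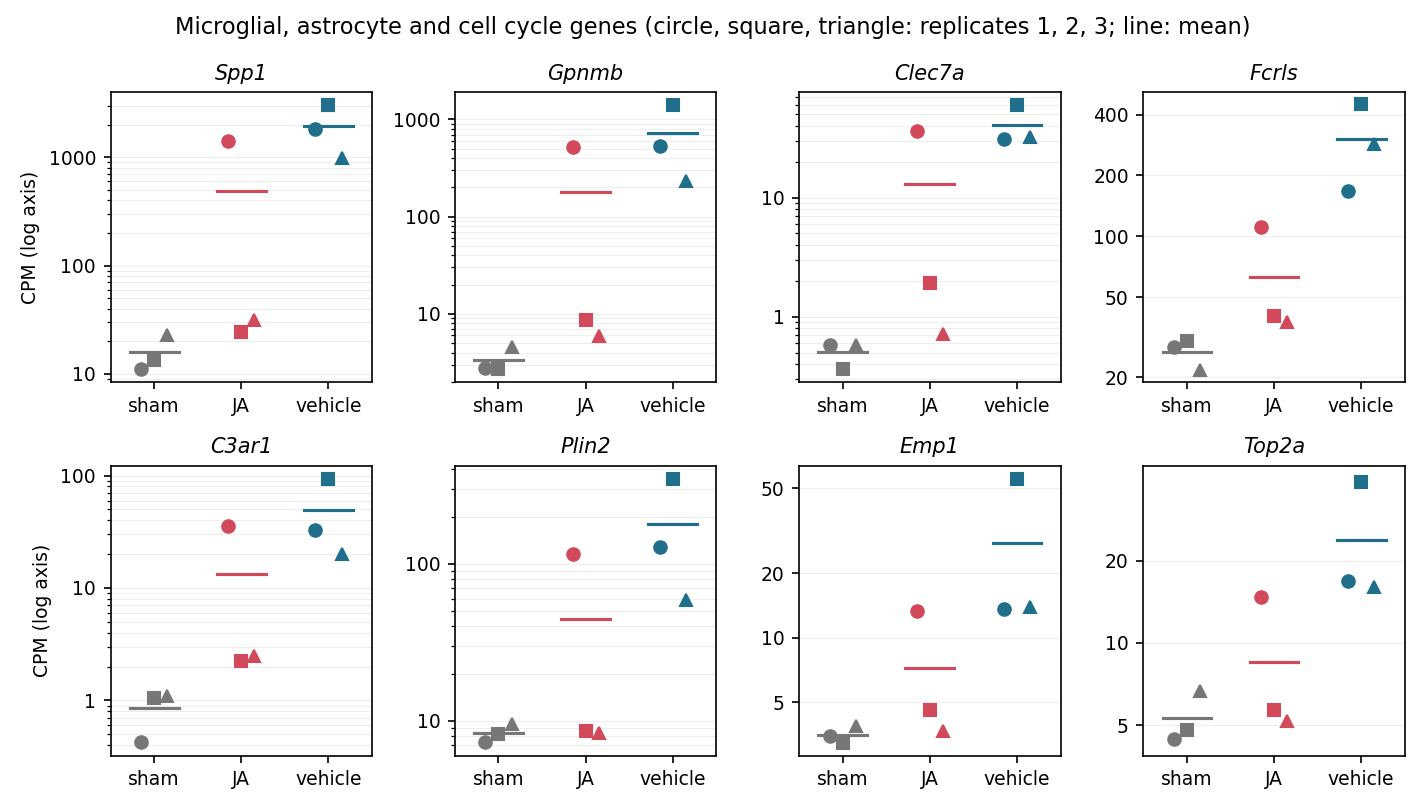
CPM on a log axis for 8 genes of microglia, complement, lipid storage, reactive astrocytes and the cell cycle in sham, JA and vehicle libraries, with the mean as a line. JA replicate 1 (circle) lies near or within the vehicle range and JA replicates 2 and 3 near sham, as for Plin2 at 117, 8.62 and 8.4 CPM.

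Genes of lipid-storing phagocytes, border macrophages and dividing cells had the same order. Plin2, the coat protein of lipid droplets, stood at 7.29, 8.25 and 9.53 CPM in sham and at 117, 8.62 and 8.4 CPM in JA, so that replicates 2 and 3 lay within the sham range. Phagocytosis and lipid genes were positive in 11 of 13 with a median of 0.45, which was 0.07 without JA replicate 1. Of 9 border and infiltrating macrophage genes that passed the filter, 9 were above every sham library in JA replicate 1, 6 in replicate 2 and 2 in replicate 3. The shares over all genes were 33.7%, 30.9% and 25.4%. The median fold change of the 9 was 1.04, and 0.14 without JA replicate 1. Fn1, fibronectin, stood at 70.6, 60.4 and 64.1 CPM in sham and at 300.3, 86.7 and 72.4 CPM in JA. Ms4a7, a membrane protein of border macrophages, stood at 6.59, 0.62 and 0.494 CPM in JA against 0.471 to 0.528 CPM in sham. All 16 cell cycle genes had a positive fold change (median 0.65), which was -0.15 without JA replicate 1, so the sign of the list rested on that library. Top2a, the topoisomerase of dividing cells, stood at 4.44, 4.8 and 6.65 CPM in sham and 14.7, 5.68 and 5.16 CPM in JA.

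Tyms, thymidylate synthase, departed from the rest of the cell cycle list. It stood at 1.43, 1.72 and 1.62 CPM in sham and at 3.73, 4.18 and 2.8 CPM in JA, so that all JA libraries lay above sham (log2 fold change 1.17 ± 0.27, adjusted p = 0.538, edgeR). Its log2 fold change was 1.14 (adjusted p = 0.121) without JA replicate 1. In other lists Hspb1, Csf3r and Hmox1 also had all JA libraries above sham. Hspb1, a small heat shock protein of reactive astrocytes, stood at 2.69, 3.29 and 3.51 CPM in sham and 5.99, 4.18 and 4.5 CPM in JA. Csf3r, the receptor of granulocyte colony-stimulating factor, stood at 2.8, 4.44 and 4.5 CPM in sham and 22.3, 7.54 and 5.16 CPM in JA. Hmox1, heme oxygenase, stood at 4.38, 5.64 and 6.02 CPM in sham and 27.6, 10.5 and 6.48 CPM in JA.

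Reactive astrocyte genes were positive in 15 of 17, with a median fold change of 0.52 and of 0.06 without JA replicate 1. JA replicate 1 was above every sham library for 14 of 17, replicate 2 for 7 and replicate 3 for 2, and 0 passed. Over all genes the 3 libraries were above sham for 33.7%, 30.9% and 25.4%. Emp1, an epithelial membrane protein, stood at 3.48, 3.24 and 3.88 CPM in sham and 13.3, 4.59 and 3.68 CPM in JA. Cd44, a hyaluronan receptor, stood at 18.3, 6.66 and 4.34 CPM in JA and 4.44 to 5.43 CPM in sham. Of 20 extracellular matrix genes 19 were positive with a median of 0.47 (0.10 without JA replicate 1). 3 had all JA libraries above sham, against 7.48% of all genes. Among these, Thbs2, a thrombospondin, stood at 11.6, 9.35 and 9.27 CPM in sham and 17, 12.1 and 12.8 CPM in JA, and Col6a1, a collagen VI chain, at 20.3 to 21.8 CPM in sham and 39.1, 26.6 and 23.3 CPM in JA. In the leptomeningeal fibroblast list, with 8 of 10 positive and a median of 0.36 (-0.01 without JA replicate 1), Col1a1 stood at 74.7, 20.7 and 12.6 CPM in JA and 11.9 to 15.4 CPM in sham. Homeostatic astrocyte genes had a median of 0.10 (0.04 without that library), with 12 of 14 positive.

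Inflammatory mediators were also high mainly in JA replicate 1. Of 17 listed cytokine and inflammasome genes 13 passed the filter, and of 19 listed chemokine genes 8 did. All 13 cytokine genes were positive with a median of 0.61, and 7 of 8 chemokine genes were positive with a median of 0.58. These medians were 0.16 and -0.02 without JA replicate 1. The median deviations in JA replicates 1 to 3 were 1.28, 0.18 and -0.05 for cytokines and 1.33, 0.09 and 0.11 for chemokines. Tnfrsf1b, the type 2 receptor of tumour necrosis factor, stood at 3.67 to 3.92 CPM in sham and 14.4, 4.96 and 5 CPM in JA, with no overlap. The interferon and antigen presentation lists varied among sham libraries too. The interferon list stood at -0.39, 0.42 and -0.17 in sham replicates 1 to 3 and at 1.32, -0.23 and -0.36 in JA, and antigen presentation at -0.33, 0.72 and -0.28 in sham and 0.93, -0.19 and -0.07 in JA. Their median fold changes, both 0.30, were -0.41 and -0.16 without JA replicate 1. Ifi27l2a, an interferon-induced gene, stood at 7.9, 0.62 and 0.275 CPM in JA and 0.739 to 1.47 CPM in sham, so its log2 fold change of 1.46 became -1.23 without JA replicate 1.

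Most markers of lymphocytes were at or near 0. Only Cd4 passed the filter on low counts among 13 genes, 11 of them in the table, and which cells it came from was not tested. Cd3e and Ms4a1, the defining markers of T and B cells, were at 0 in all 6 libraries, and Cd3g, Cd8a, Nkg7, Gzma and Gzmb were at 0.209 CPM or less in every one. Cd79a and Cd79b, of the B cell receptor, reached 0.528 and 0.604 CPM, or 10 and 12 counts, in their highest library. Cd4 itself stood at 16.1, 17.3 and 10.9 CPM in sham and 4.53, 10.4 and 14.6 CPM in JA. Of 11 neutrophil genes 5 passed, and Ly6g, the defining surface marker, did not exceed 0.0549 CPM. The median fold change of these 5 was 0.04 (-0.31 without JA replicate 1). The summed level of the neutrophil list was 9.24 to 14.1 CPM in sham and 35, 13.8 and 10.3 CPM in JA.

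Cholesterol synthesis genes were low in JA replicate 1 and near sham in the others. Of 21 genes 19 had negative fold changes with a median of -0.32, and 20 were below every sham library in JA replicate 1, 8 in replicate 2 and 10 in replicate 3. Over all genes these shares were 35.5%, 30.1% and 29.8%. 5 of 21 had all JA libraries below sham, against 8.91% of all genes, and 0 passed. The median deviations were -1.08, -0.08 and -0.12, against -1.14 to -0.55 in vehicle. Fdps, which makes farnesyl diphosphate, stood at 65.4, 70.8 and 77.5 CPM in sham and at 36, 60.9 and 64.2 CPM in JA. Dhcr7, the last reductase of one branch, stood at 55.6, 60.9 and 57.2 CPM in sham and 33.7, 55.6 and 51.1 CPM in JA. The median fold change was -0.09 without JA replicate 1. Mature oligodendrocyte genes, whose myelin is rich in cholesterol, had a median deviation of -0.32, 0.07 and -0.14 in JA, with a median fold change of -0.12 (-0.01 without JA replicate 1).

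Markers of the projection neurons of the striatum, the centre of the occluded territory, were graded over the JA libraries. All 17 had negative fold changes with a median of -0.33 (-0.12 without JA replicate 1), 3 had an unadjusted p under 0.05, and 0 passed. Below every sham library were 17 of 17 in JA replicate 1, 15 in replicate 2 and 3 in replicate 3, against a background of 35.5%, 30.1% and 29.8%. The median deviations were -0.83, -0.29 and 0.01, and those of vehicle -0.21, -1.71 and -1.35. Pdyn, the precursor of dynorphin, stood at 45.1, 52.2 and 48.7 CPM in sham and at 29.3, 33.6 and 42.1 CPM in JA (log2 fold change -0.47 ± 0.13, adjusted p = 0.538, edgeR). Rarb, a retinoic acid receptor, stood at 32, 33.2 and 28.4 CPM in sham and 15, 21.3 and 28.3 CPM in JA. Gng7, the G protein gamma subunit of striatal neurons, stood at 362 to 363 CPM in sham and 276, 296 and 342 CPM in JA. In each of the 3, replicate 3 was the nearest to sham. JA replicate 1 was low for striatal genes and high for glial genes. JA replicate 2 departed from sham in the same directions by less. Its median deviation was -0.29 for the striatal list, 0.22 for reactive microglia and 0.30 for complement.

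Other neuronal lists lay closer to sham. Pan-neuronal genes were negative in 13 of 14 with a median of -0.09, and cortical genes in 6 of 14 with a median of 0.02. Without JA replicate 1 these medians were -0.00 and 0.10. Hippocampal genes had a median of -0.10. Of 13 interneuron and neuropeptide genes 11 were negative with a median of -0.16, which was -0.03 without JA replicate 1. Gad2 and Gad1, the enzymes that make GABA, both had all JA libraries below sham: Gad2 stood at 276, 303 and 264 CPM in sham and 196, 214 and 260 CPM in JA, and Gad1 at 461 to 489 CPM in sham and 334, 393 and 445 CPM in JA. Of 13 GABA receptor genes 12 were negative with a median of -0.10, which was -0.00 without JA replicate 1. Gabra4, the alpha-4 subunit, was the lowest in p, at 162, 172 and 163 CPM in sham and 126, 143 and 106 CPM in JA (log2 fold change -0.40 ± 0.10, adjusted p = 0.538, edgeR). Here replicate 3 was the lowest, unlike in the striatal list. Glutamate receptors and ion channels had medians of 0.01 and 0.02 (0.07 and 0.08 without JA replicate 1).

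Vascular and ependymal lists had medians near that of all genes. Endothelial and barrier genes had a median of 0.10 (0.03 without JA replicate 1). 3 of 15 were above sham in all JA libraries and 2 of 15 below, against 7.48% and 8.91% of all genes. Tfrc, the transferrin receptor of brain endothelium and neurons, stood at 149.8, 139.6 and 146 CPM in sham and at 94.3, 123 and 128 CPM in JA. Slco1a4, a transporter of organic anions and bile salts, stood at 46.6, 47 and 38.9 CPM in sham and 55.6, 50 and 51.4 CPM in JA. Cldn5, the claudin of the blood-brain barrier, stood at 28.1, 24.5 and 28.4 CPM in sham and 21.9, 24 and 22.6 CPM in JA. Pericyte and smooth muscle genes had a median of 0.04 (-0.06 without JA replicate 1). Ependymal genes had a median of 0.02 against sham (-0.01 without JA replicate 1). Choroid plexus genes were negative in all 12, with a median of -0.25. They had a summed level of 780 to 1526 CPM in sham and 834, 1440.0 and 910 CPM in JA, and 0 of 12 had groups that did not overlap.

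Stress and metabolic lists had small medians. Unfolded protein response genes had a median of 0.12 with 3 of 15 above sham in all JA libraries, against 7.48% of all genes. Among these 3 was Sdf2l1, a chaperone cofactor, at 5.81 to 6.37 CPM in sham and 13.5, 9.86 and 8.02 CPM in JA. Hspa5, the chaperone BiP, stood at 209, 248 and 248 CPM in sham and 308, 265 and 282 CPM in JA. Heat shock genes had a median of -0.05, antioxidant genes -0.02, hypoxia and glycolysis genes 0.03, p53 targets 0.10 and iron handling genes 0.04. Without JA replicate 1 these 5 medians were -0.03, -0.06, 0.06, -0.03 and -0.05. Oligodendrocyte precursor genes had a median of 0.08 (0.0 without JA replicate 1), neurotrophic factors -0.04 (0.04 without it) and neurogenesis genes -0.14. Metalloproteinases and their inhibitors had a median of 0.13, which was -0.09 without JA replicate 1. Of 12 bile acid receptor, transport and metabolism genes that passed the filter, 9 were positive with a median of 0.12 (-0.02 without JA replicate 1) and 0 passed. Gh, growth hormone, was called higher by DESeq2 with 0 counts in each sham library and 13, 55 and 11 counts in JA (adjusted p = 0.00203, and 0.538 in edgeR). It was chosen after its values were seen. It met the filter on low counts only through the 3 JA libraries, so it could only come out higher in JA, and its call is no independent result.

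Against vehicle, where the question is what JA changed in the occluded brain, edgeR called 790 genes higher (5.43%) and 422 lower (2.9%) in JA with all 9 libraries in 1 fit. The count rested on single libraries: it was 0 without vehicle replicate 3, without JA replicate 2 or without JA replicate 3, and 1470 higher and 1606 lower without JA replicate 1. Without vehicle replicate 1 there were 877 higher and 730 lower, and without vehicle replicate 2 there were 406 and 114. These vehicle and sham comparisons share the JA libraries. Of the lists, ribosomal protein genes had 9 of 20 lower, homeostatic microglial genes 5 of 12 lower and ependymal genes 4 of 12 lower in JA, and GABA receptor genes had 3 of 13 and heat shock genes 4 of 14 higher. For the reactive microglia list, 1 of 26 passed, and the median difference from vehicle was -1.63.

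Among single genes, Fcrls was lower in JA than in vehicle, where it stood at 168, 450 and 286 CPM (log2 fold change -2.27, adjusted p = 0.0412, edgeR). P2ry12 was also lower in JA than in vehicle, where it stood at 105, 128 and 143 CPM (-0.68, adjusted p = 0.0346, edgeR). Tfrc was higher in JA than in vehicle, at 56.4, 70 and 71.6 CPM there (0.78, adjusted p = 0.0289, edgeR), and its JA level stood between vehicle and sham. Slco1a4 was higher than vehicle, at 33.4, 30.1 and 35.5 CPM (0.64, adjusted p = 0.0289, edgeR). Ak7, an adenylate kinase of motile cilia, was lower, at 3.12, 2.99 and 2.25 CPM in JA against 6.59, 7.81 and 5.43 CPM in vehicle and 3.27 to 4.07 CPM in sham (-1.26, adjusted p = 0.0289, edgeR). Zfr2 was lower than vehicle as well as lower than sham in level (-0.49 against vehicle, adjusted p = 0.0438, edgeR). Slc17a6 was higher than vehicle (0.55, adjusted p = 0.0347, edgeR) while its JA libraries all lay below sham. All of these calls are lost when vehicle replicate 3, JA replicate 2 or JA replicate 3 is left out, since no gene passed there.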

How the data were processed

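Extraction of brain RNA used a mirVana kit, and TruSeq Stranded mRNA libraries were sequenced, per the labels' protocols. The deposited table holds whole-number read counts per gene, per the file headers, and FPKM values (fragments scaled by transcript length and depth) computed by the authors. Tools named in the submitters' processing notes are HISAT2, Trimmomatic, DESeq and Cufflinks, and the build is GRCm38 (mm10), with no version and no role. Which tool counted the reads, and with which strand setting, is not given in the sources used here. 1 count column matched no sample's labels and was not used, and no line lacked a gene name.

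Groups came from the sample labels. The 3 JA and 3 sham libraries were compared in R 4.3.3 by edgeR 4.0.16 (quasi-likelihood test) on the counts of 14541 genes, with TMM scaling (factors 0.985 to 1.03), robust estimation and 4 residual degrees of freedom. The biological coefficient of variation was 14.9%. Adjusted p-values are Benjamini-Hochberg values over all genes tested, with a threshold of 0.05. JA was compared with vehicle in 1 fit over the 9 sham, JA and vehicle libraries. Deviations of lists use log2 CPM with a prior count of 2, and CPM levels use TMM factors of all 15 libraries (0.966 to 1.05). Standard errors (SE) were derived from the F statistic as the fold change over the root of F. Alternatives used DESeq2 1.42.0, limma 3.58.1 (voom, and log2(FPKM + 0.1) or log2(FPKM + 1)), other scalings and filters, a GC correction, a replicate block and leaving out each library. The procedure was tested on simulated data. Gene positions and exon overlaps come from the GENCODE M21 annotation of GRCm38, which matched 18523 genes (97.8%). Overlaps are not stated for every gene named: exons of Cox6c, Cox5a, Ndufb5, Ndufa9 and Gabra4, among others, also overlap a gene on the opposite strand. Promoters come from RefSeq on GRCm38.p6.

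48 lists held 695 genes, of which 634 passed the filter, and 9 genes were in 2 or more lists. Lists are described by counts and medians beside those of all genes. By rule the text names 12 genes in each direction: genes past the threshold, at 1 CPM or more in the mean of either group, with groups that do not overlap and no predicted symbol, completed by the smallest p where fewer pass. To these come up to 4 genes of smallest p from each list. Some genes taken by this rule are left undescribed. The genes compared, the lists and the tests were chosen with earlier results of these data known. Intervals below the floor of 3 counts cover counting error only.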

Additional observations from a re-analysis of the deposited data

How the results depend on the processing

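The count of 0 genes past the threshold between JA and sham, with 1255 at an unadjusted p under 0.05 in edgeR, became 31 (25 higher) with DESeq2, 97 without JA replicate 1 and 103 when that library was left out with a GC correction (91 higher and 12 lower). Leaving out 1 library gave 0 to 97. It remained 0 with limma-voom, relative log expression factors, library totals only, no filter on low counts, filterByExpr, all 15 libraries, all libraries but JU replicate 1, 9 libraries, no robust estimation, a GC correction, and limma on log2(FPKM + 0.1) and log2(FPKM + 1). 21 genes were called both by DESeq2 and without JA replicate 1, and 0 in every fit that left out 1 library. The count of 1212 genes between JA and vehicle was 0 to 3076 when 1 library was left out and 2807 (1487 higher and 1320 lower) with all libraries but JU replicate 1, with a highest of 1470 higher and 1606 lower without JA replicate 1.

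With the replicate block, edgeR called 0 genes between JA and sham (1167 at an unadjusted p under 0.05, smallest adjusted p 0.133), 0 with the GC correction added, and 0 between JA and vehicle. JA and sham libraries that share a number did not deviate together (correlations over genes of -0.00744, -0.0413 and 0.0324 for numbers 1 to 3). Those of JA and vehicle gave -0.355, -0.321 and 0.328, and JA and vehicle libraries of unlike number -0.504 to 0.596. Correlations that vary this much without a shared number cannot decide on pairing. The labels do not say that shared numbers pair animals, so the numbers were not taken as pairs.

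Of 2835 values of 129 named genes under alternatives, 2738 kept their direction and side of the threshold and 91 passed it only under the alternative. As 0 genes passed in the main fit and in most alternatives, the side of the threshold was kept almost by design. Size was not compared: Plin2 counts as kept although its log2 fold change went from 2.42 to 0.03 without JA replicate 1. The other 6 values, of 3 genes, changed sign. Without JA replicate 1 and with the GC correction, Ifi27l2a stood at -1.24, Jun at -0.02 and Npas4 at 0.01. Of these, leaving out 1 library gave -1.23 to 2.0, -0.00 to 0.26 and -0.93 to 0.04. Of 1056 list medians under alternatives 27 moved by more than the standard deviation of the list's deviations over the 3 JA libraries. Most of these were in the hypothalamic (-0.54 to -0.19) and circadian (0.06 to 0.15) lists. JA replicate 1 widens that standard deviation, so the count cannot show how far a list rests on that library. Without it the reactive microglia median went from 1.34 to 0.14 and the cell cycle median from 0.65 to -0.15. Neither was counted as moved. With 3 libraries a group, and a JA group that holds 1 library near vehicle, differences smaller than the spread of that group are not detectable here.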
